A study of Homo sapiens with 6 samples.

Results

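The genes described here encode receptor tyrosine kinases that are often altered, amplified or targeted by drugs in thyroid cancer: EGFR, ERBB2, ERBB3, MET, AXL, FGFR1, FGFR2, FGFR4, IGF1R and RET. They were chosen by gene symbol, and 9 of the 10 were measured among 32896 genes, while FGFR2 was not analysed here. The cells were BHT101, an established human line from an anaplastic thyroid carcinoma, transfected with a lipid reagent and harvested 48 h later. The control group received a control plasmid (3 libraries), and the SK4 group received a plasmid for overexpression of SK4 (3 libraries), the calcium-activated potassium channel KCa3.1 encoded by KCNN4. The study asked which genes lie downstream of SK4. By cell line label, all 6 libraries thus share the cell line, and they share the transfection and the harvest time. The treatment label of control replicate 3 names another cell line number than its cell line label. The share of cells that took up a plasmid is not given in the sources used here. In such bulk RNA, fewer cells with a transcript and less of it per cell cannot be told apart. Whether replicate libraries stem from separate cultures is not stated in the labels. The p-values therefore reflect the spread between these libraries alone, and that spread may be technical.

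A receptor tyrosine kinase spans the cell membrane once. Binding of a ligand outside the cell brings receptors together, the kinase inside phosphorylates tyrosines of its partner, and adaptor proteins that bind these tyrosines pass the signal to the RAS-MAPK and PI3K-AKT pathways. In thyroid carcinoma, RET is best known for rearrangements in papillary tumours and for point mutations in medullary tumours, which arise from C cells. MET and EGFR are described as raised in many papillary and anaplastic tumours.

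KCNN4 was at 8.31, 8.26 and 8.52 FPKM (a level per unit of gene length and of sequencing depth, from fragments per kilobase) in the control libraries and at 184.1, 147.7 and 169.2 FPKM with SK4. It rose in the libraries labelled SK4 (log2 fold change 4.23, limma adjusted p = 8.83e-07). By exact permutation (two-sided), p was 0.1, the lowest that 3 against 3 libraries can reach. Estimated depth was 29700000 to 38500000 fragments per library. Control replicate 3, the shallowest, and SK4 replicate 2 stood apart from the other 4 in the recovery of genes of low GC content, and the results on the members are given with and without them. All 6 epithelial markers reached a mean of 1 FPKM, with a summed level of 576.8 to 626.2 FPKM with the control plasmid and 595.4 to 648.3 FPKM with SK4. Of 5 mesenchymal markers 3 reached a mean of 1 FPKM. The mesenchymal sums were 225.34 to 233.97 FPKM with the control plasmid and 225.07 to 236.39 FPKM with SK4. Most of that was VIM (210.09 to 222.07 FPKM), and FN1 was at 4.01 to 5.29 FPKM. The epithelial marker CDH1, at 1.59 to 1.97 FPKM, lay below the mesenchymal marker CDH2 in every library (mean of CDH2 9.69 FPKM). None of the 10 thyroid follicular markers and none of the 8 C cell markers reached a mean of 1 FPKM. The follicular sums were 1.11 to 1.29 FPKM with the control plasmid and 1.20 to 1.44 FPKM with SK4, with thyroglobulin (TG) at most at 0.01 FPKM. The highest follicular markers were DIO2, an enzyme that activates thyroid hormone, at 0.51 to 0.85 FPKM and PAX8, a thyroid transcription factor, at 0.24 to 0.40 FPKM, and 6 of the 10 never exceeded 0.1 FPKM. C cell sums were 0.33 to 0.47 FPKM and 0.40 to 0.61 FPKM. Endothelial markers summed to at most 0.46 FPKM. Of 7 leukocyte markers 3 reached a mean of 1 FPKM, namely CD14 (3.32 to 4.43 FPKM), CD68 (1.63 to 2.19 FPKM) and ITGAM (1.02 to 1.26 FPKM), while the defining gene PTPRC was at most at 0.01 FPKM. Leukocyte sums were 6.67 to 7.31 FPKM with the control plasmid and 6.40 to 7.11 FPKM with SK4, and their part in the results was not tested. Of 7 fibroblast markers 2 reached a mean of 1 FPKM, LUM (21.9 to 31.2 FPKM) and PDGFRA (1.66 to 2.39 FPKM). Fibroblast markers summed to 24.5 to 34.3 FPKM over all libraries, most of it LUM, and COL1A1 was at most at 0.08 FPKM.

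Among the members, MET had the highest level and RET was close to 0. MET, the receptor of hepatocyte growth factor, was at 27.9, 25.8 and 20.8 FPKM in controls 1 to 3 and at 26.7, 21.3 and 25.03 FPKM in SK4 libraries 1 to 3. The lowest values came from control replicate 3 and SK4 replicate 2, and the groups overlapped. AXL, the GAS6 receptor linked to invasion and drug resistance, was at 6.71, 6.50 and 6.42 FPKM with the control plasmid and 6.49, 7.03 and 5.90 FPKM with SK4. For AXL the SK4 libraries spanned both ends, and SK4 replicate 2, low for MET, was the highest. RET, the receptor of the GDNF family, was listed at 0, 0.01 and 0.01 FPKM with the control plasmid and at 0, 0.02 and 0 FPKM with SK4, where a 0 can be a smaller value rounded. Taken as listed, these values amount to at most about 5 fragments in a library, by exon length and estimated depth. For MET it was 4344 to 7050 fragments.

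The ERBB family shared intermediate levels. EGFR, the receptor of epidermal growth factor and its relatives, was at 6.15, 5.55 and 4.60 FPKM with the control plasmid and 5.55, 5.00 and 5.40 FPKM with SK4. All 3 SK4 values lay within the control range. ERBB2 has no ligand of its own and acts as the partner of the other family members. It was at 2.55, 2.45 and 2.51 FPKM with the control plasmid and 2.76, 2.69 and 2.61 FPKM with SK4, so that every SK4 value was above every control value. ERBB3 binds neuregulins, has a nearly inactive kinase and signals through its partner, chiefly to PI3K. Its values were 3.33, 3.21 and 3.31 FPKM with the control plasmid and 3.14, 3.21 and 3.19 FPKM with SK4, with a tie at 3.21 FPKM between the groups.

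Of the FGF receptors, FGFR4 carried nearly all of the measured level among the members. FGFR4, which responds to FGF19 with the co-receptor beta-Klotho, was at 3.89, 3.34 and 3.71 FPKM with the control plasmid and 3.42, 3.74 and 3.54 FPKM with SK4. FGFR1, the FGF receptor common in mesenchymal cells, was at 0.11, 0.17 and 0.12 FPKM with the control plasmid and 0.13, 0.21 and 0.18 FPKM with SK4. The groups overlapped for both, and FGFR4 exceeded FGFR1 by 17.8 to 35.4 times within a library in FPKM as listed. That ratio depends on the gene lengths used, which are not given in the sources used here. IGF1R, the receptor of insulin-like growth factors, was at 1.06, 1.12 and 0.93 FPKM with the control plasmid and 1.10, 0.94 and 0.98 FPKM with SK4. It thus lay close to the limit of 1 FPKM in at least 3 libraries that was set for testing, which FGFR1 and RET did not reach.

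**Figure D1:**
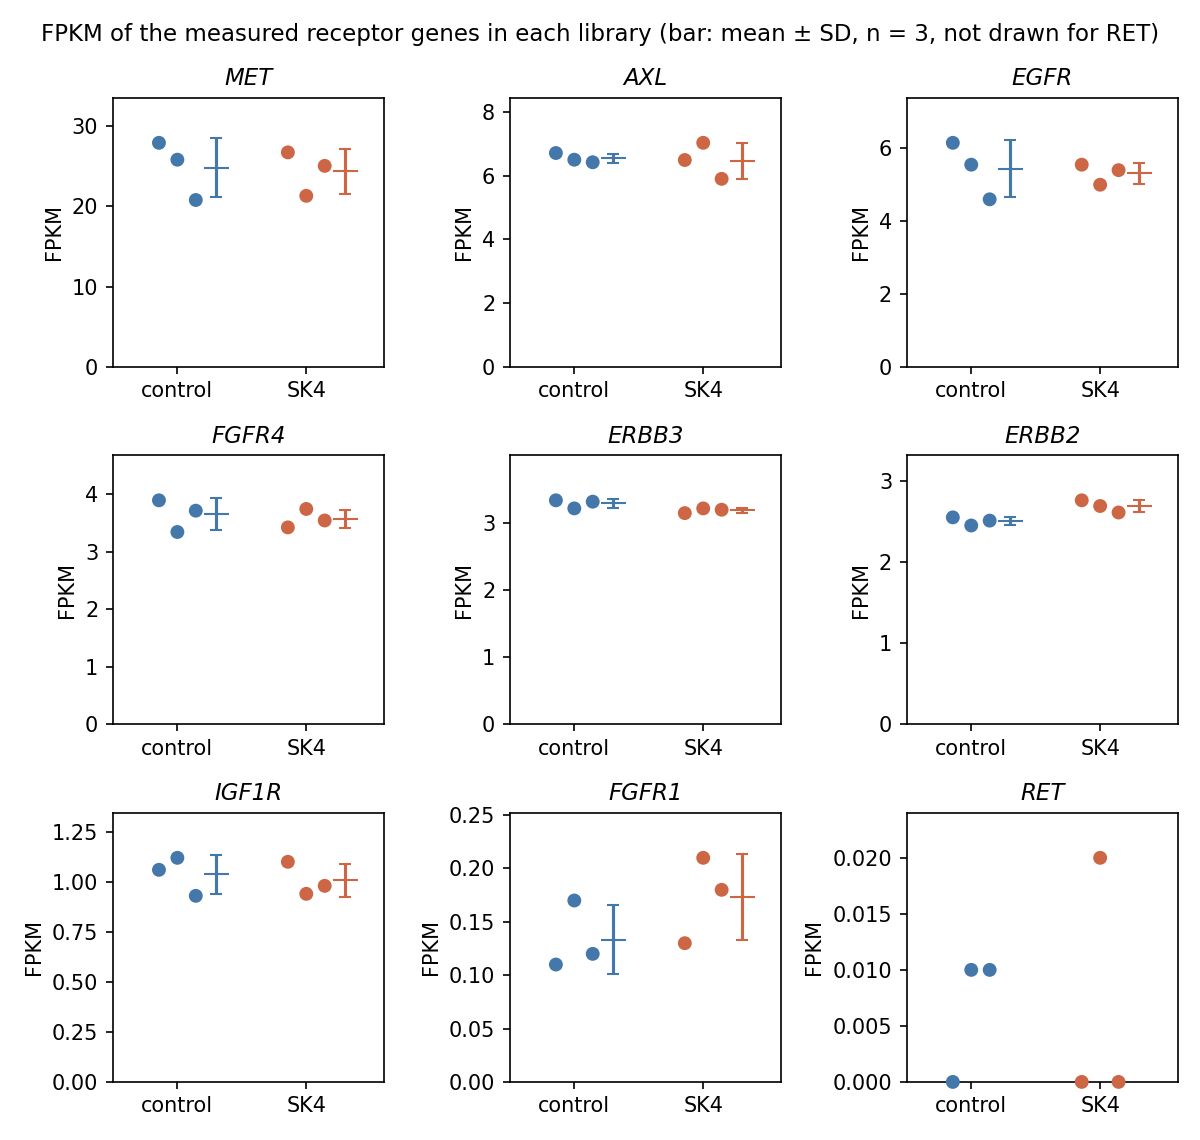
FPKM (y axis, from 0, a separate scale in each panel) of the 9 measured receptor genes in the control and SK4 libraries; each point is 1 library, in order of replicate number, and bars give the mean ± SD (n = 3), which is not drawn for RET. The groups overlap in every panel but that of ERBB2, where the SK4 libraries at 2.61 to 2.76 FPKM lie above the control libraries at 2.45 to 2.55 FPKM.

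The order of the FPKM values as listed was the same with either plasmid: MET, AXL, EGFR, FGFR4, ERBB3, ERBB2, IGF1R, FGFR1 and RET. Within each group of 3 libraries, no gene's range touched that of its neighbour in this order. The narrowest steps were from FGFR4 to ERBB3, with means of 3.65 ± 0.280 and 3.28 ± 0.0643 FPKM with the control plasmid and 3.57 ± 0.162 and 3.18 ± 0.0361 FPKM with SK4 (SD, n = 3). A step was also narrow from AXL to EGFR, a ratio of means of 1.20 in the control and 1.22 in the SK4 libraries. MET exceeded AXL by a ratio of 3.79 and 3.76. Like every comparison of FPKM between genes, this order depends on the gene length used, which is not given in the sources used here. For ERBB2 all exons together cover 10321 nt and the longest transcript 4930 nt, and for ERBB3 9039 and 5919 nt. Whether the narrow steps, such as that from ERBB3 to ERBB2, hold with another length was not tested.

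All 9 genes lie on different chromosomes except MET and EGFR, which share chromosome 7. In GRCh38 with GENCODE release 29, MET spans 116672390 to 116798386 and EGFR 55019021 to 55211628 on the plus strand of that chromosome. On the plus strand, too, are AXL (chromosome 19, 41219203 to 41261766), ERBB3 (chromosome 12, 56076799 to 56103505), ERBB2 (chromosome 17, 39687914 to 39730426), FGFR4 (chromosome 5, 177086886 to 177098144), IGF1R (chromosome 15, 98648539 to 98964530) and RET (chromosome 10, 43077027 to 43130351). Each value is a sum over the whole gene. Isoforms, such as a shortened or rearranged receptor, are not separated by it.

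Promoter sequences from RefSeq (GRCh38.p14), 250 bases before the RefSeq start, matched 7 members: MET, AXL, EGFR, FGFR4, ERBB2, IGF1R and RET. These starts can differ from the GENCODE starts given above. The sequences of AXL, FGFR4, ERBB2 and RET reach into the GENCODE gene, and that of MET ends at 116672195, before the GENCODE start at 116672390. The GC box, GGGCGG on either strand, occurred in 6 of the 7 and in 42.3% of 27305 promoters of the same length. The TATA box, TATAAA on either strand, occurred in 0 of the 7 and in 11.1% of all. The AP-1 site, TGACTCA on either strand, occurred in 0 of the 7 and in 4.16% of all. GC content was 64.4% to 81.2% in the 7, against a median of 58.0% over all promoters. Those of MET and EGFR, on the plus strand of chromosome 7, are shown beside that of RET, on the plus strand of chromosome 10, because MET had the highest and RET the lowest level of the members and EGFR varied between libraries nearly as MET did. Capitals mark the GC boxes of either strand, which run together in RET.
MET, chr7:116671946-116672195: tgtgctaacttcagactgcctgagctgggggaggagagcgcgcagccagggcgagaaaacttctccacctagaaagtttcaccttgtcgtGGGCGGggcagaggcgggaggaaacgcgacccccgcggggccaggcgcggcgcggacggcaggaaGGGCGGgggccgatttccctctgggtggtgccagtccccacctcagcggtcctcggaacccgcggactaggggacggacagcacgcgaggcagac
EGFR, chr7:55018767-55019016: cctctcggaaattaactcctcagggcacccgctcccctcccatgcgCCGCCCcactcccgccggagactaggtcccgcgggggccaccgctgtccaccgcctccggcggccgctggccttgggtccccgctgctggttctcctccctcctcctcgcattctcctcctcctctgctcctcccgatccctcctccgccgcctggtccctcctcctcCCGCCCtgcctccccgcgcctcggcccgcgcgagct
RET, chr10:43076819-43077068: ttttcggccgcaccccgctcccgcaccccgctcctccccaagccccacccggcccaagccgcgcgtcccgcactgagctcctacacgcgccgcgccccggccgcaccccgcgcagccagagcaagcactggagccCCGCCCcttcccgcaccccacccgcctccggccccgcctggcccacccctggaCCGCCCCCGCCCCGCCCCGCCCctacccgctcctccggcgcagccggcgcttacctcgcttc
GC boxes numbered 2 in MET, 2 in EGFR and 5 in RET. The gene with the lowest level of the 7 therefore held more copies than the gene with the highest. A match of letters is a description and shows no binding.

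Among all receptor tyrosine kinase genes, the members took a part of the level but not its largest share. Of 58 such genes 51 were measured, and their summed level was 125.05 ± 6.05 FPKM with the control plasmid and 126.7 ± 3.89 FPKM with SK4 (SD, n = 3). The 9 members took 39.6%, 38.2% and 35.7% of that sum in controls 1 to 3 and 37.6%, 35.4% and 37.7% in SK4 libraries 1 to 3. MET alone took 17.1% to 21.4%. EPHA2, an ephrin receptor, took more in every library, 25.8% to 28.4%. The other receptors of high level were DDR1, a collagen receptor, and EPHB4, an ephrin receptor, with mean shares in the control of 9.27% and 7.36%.

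By FPKM as listed, MET ranked second of the 51 genes, AXL the fifth, EGFR the sixth, FGFR4 the eighth, ERBB3 the tenth and ERBB2 number 12. Ranks of genes with close values can change with the gene length used. IGF1R was number 17, the last with a mean of at least 1 FPKM. Of the 42 other receptor genes, 21 had a mean below 0.1 FPKM, and of the 9 members RET was the only one. Close relatives of the members were also measured. TYRO3, of the AXL family, was at 2.02 ± 0.0451 FPKM with the control plasmid and 2.17 ± 0.0153 FPKM with SK4, and MST1R, the relative of MET that binds macrophage-stimulating protein, at 2.42 ± 0.117 and 2.57 ± 0.258 FPKM (SD, n = 3). INSR, the insulin receptor related to IGF1R, was at 0.913 ± 0.159 and 0.870 ± 0.0520 FPKM. FGFR3 was at 0.663 ± 0.0907 and 0.657 ± 0.0513 FPKM, below FGFR4 and above FGFR1 in every library.

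**Figure D2:**
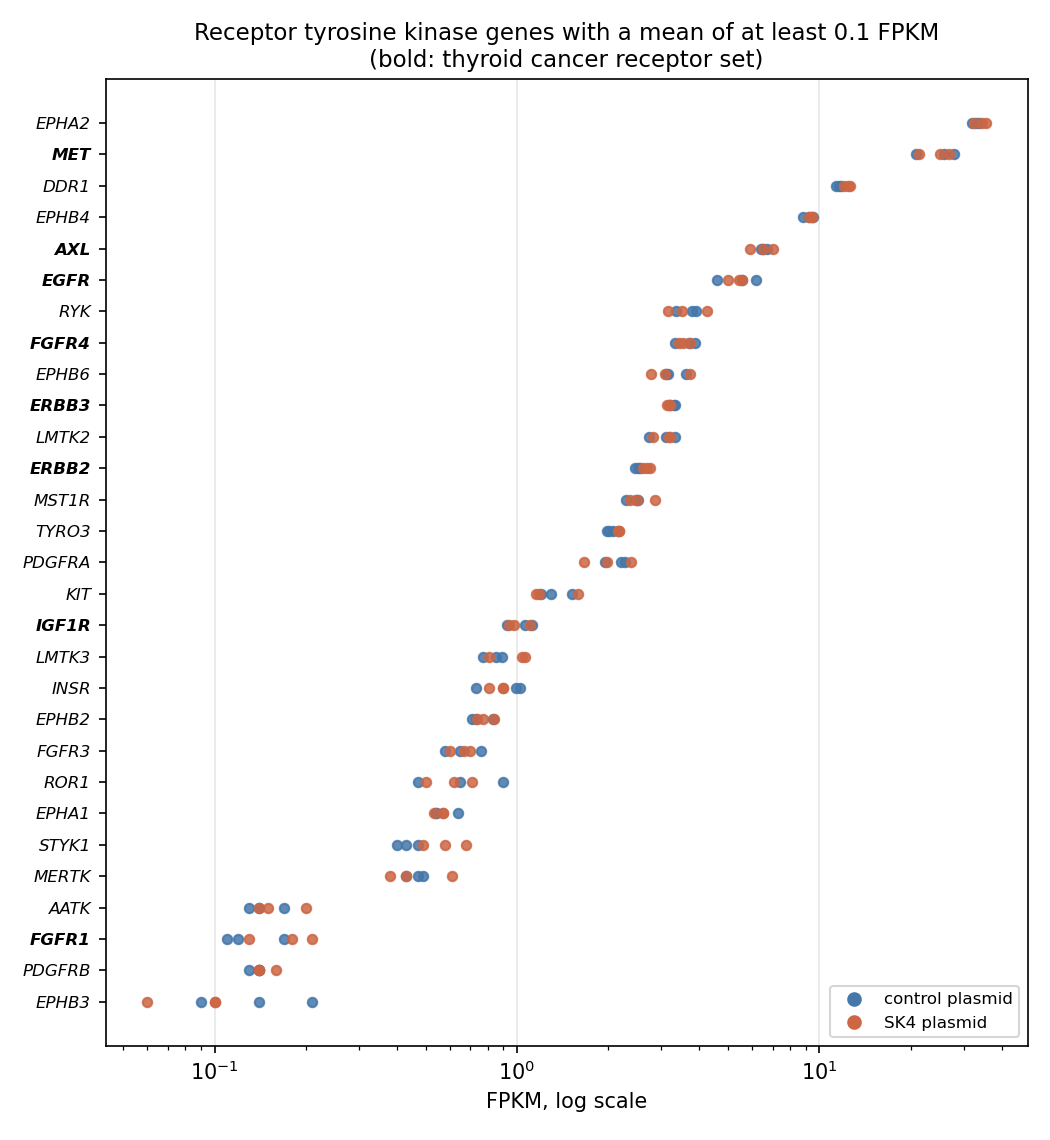
FPKM on a log scale (x axis) of the receptor tyrosine kinase genes with a mean of at least 0.1 FPKM, ordered by mean; each point is 1 library, blue for control and orange for SK4, and names of the thyroid cancer set are bold. MET lies second after EPHA2, most members lie between 1 and 10 FPKM, FGFR1 is near the bottom, and RET is below the range drawn.

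The fitted comparison called none of the members. Of the 9 measured, 7 passed the filter and entered the test of 11139 genes, and 0 of the 7 had an adjusted p below 0.05 (limma), nor did any have an unadjusted p below 0.05. Over all tested genes 1 was called, KCNN4, which is 0.00898%, and 1.65% had an unadjusted p below 0.05. Beside a background that low, 0 of 7 is not a result about the members. Each of the 7 had an adjusted p of 0.99997 (limma), and their unadjusted p ranged from 0.238 for ERBB2 to 0.853 for MET.

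The intervals are for bulk RNA and rest on the spread between these libraries alone. How far a receptor moved in the cells that took up a plasmid was not tested. MET had a fold of 0.984 in the SK4 over the control libraries (95% confidence interval 0.808 to 1.20), the widest interval of the 7. ERBB2 had a fold of 1.06 (0.953 to 1.18), the only one above 1. ERBB3 had a fold of 0.973 (0.881 to 1.07), the narrowest interval. For the others the folds were 0.988 for AXL (0.881 to 1.11), 0.985 for EGFR (0.835 to 1.16), 0.982 for FGFR4 (0.868 to 1.11) and 0.981 for IGF1R (0.842 to 1.14). All 7 intervals lay inside 1.5-fold in either direction, as did 96.8% of those of all tested genes. These folds are on the log2(FPKM + 0.5) scale, which understates changes of low genes such as IGF1R. Without the filter FGFR1 had a log2 difference of 0.088 and RET of -0.00018 on that scale, neither called (limma, adjusted p = 0.973 and 1).

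The log2 fold changes of the members were small, 6 of them negative and 1 positive. The median log2 fold change of the 7 was -0.023, beside 0.011 over all tested genes, of which 57.9% were positive. The median of the 7 was 0.016 without control replicate 1, -0.0029 if control replicate 2 was left out, 0.0040 if SK4 replicate 2 was and -0.073 with library weights, and that of all tested genes -0.021 without control replicate 3 and -0.0049 without SK4 replicate 1. ERBB2 was the single member whose SK4 values all exceeded its control values, beside 3.53% of all tested genes, and 0 members lay apart on the lower side, beside 1.81%. In either direction that is 1 of 7, beside 5.34% of all tested genes. Leaving out 1 library turned the sign of EGFR, MET, AXL, FGFR4 and IGF1R, but not of ERBB2 (log2 fold change 0.069 to 0.10) or ERBB3 (-0.054 to -0.031). The ratio of ERBB3 to ERBB2 within a library was 1.31, 1.31 and 1.32 in controls 1 to 3 and 1.14, 1.19 and 1.22 in SK4 libraries 1 to 3. These ratios did not overlap between the groups, but this pair was picked after its values were seen, so no test is given.

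**Figure D3:**
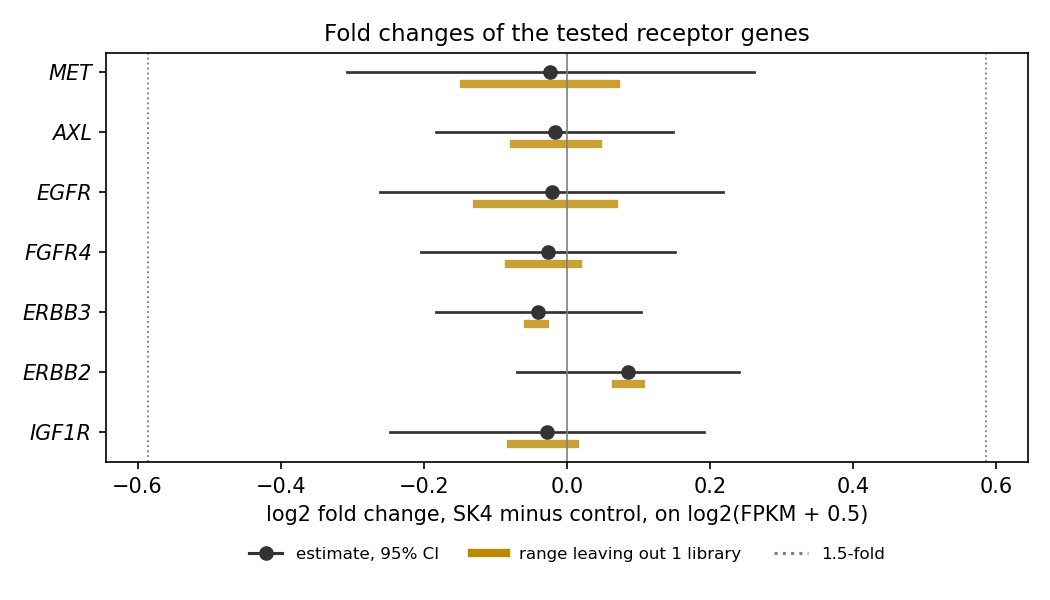
Log2 fold change of the 7 tested receptor genes (x axis, SK4 minus control on log2(FPKM + 0.5)); points and thin lines give the estimate with its 95% confidence interval, thick bars the range of estimates when 1 library is left out, and dotted lines mark 1.5-fold. Every interval includes 0 and stays inside the dotted lines, and only the thick bars of ERBB2 and ERBB3 keep to 1 side of 0.

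The spread within a group differed between receptors. The highest control value of MET was 1.34 times the lowest, and that of EGFR 1.34 times, against 1.04 times for ERBB2 and 1.04 times for ERBB3. The coefficient of variation among controls was 14.7% for MET, 14.4% for EGFR, 9.37% for IGF1R, 7.69% for FGFR4, 2.29% for AXL, 1.96% for ERBB3 and 2.01% for ERBB2. Among the SK4 libraries it was largest for MET (11.4%) and AXL (8.73%). MET and EGFR were high and low in nearly the same libraries, and their ratio within a library stayed between 4.26 and 4.81. The ratio of MET to AXL ranged more widely, from 3.03 to 4.24.

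Control replicate 3 and SK4 replicate 2 held lower values for genes of low GC content. Relative to the mean of the 6 libraries on the log2 scale, the GC quintile of tested genes with the lowest GC content had a median of -0.21 in control replicate 3 and -0.12 in SK4 replicate 2, and 0.049 to 0.12 in the other 4. The quintile with the highest GC content stayed between -0.027 and 0.039. MET, whose longest transcript has 42.4% GC, in the second quintile, was at -0.23 and -0.19 in those libraries, beside medians of -0.15 and -0.075 for its quintile. EGFR, at 47.5% in the third quintile, was at -0.20 and -0.090, beside medians of -0.062 and -0.012. ERBB3, in the same quintile, was at 0.030 and -0.0082, and FGFR4, in the highest quintile with 63.6%, was at 0.037 and 0.048. Transcript length moved with the same libraries. The quintile of tested genes with the longest transcripts, which holds MET, EGFR, ERBB3 and IGF1R, had a median of -0.13 in control replicate 3 and -0.060 in SK4 replicate 2, and 0.0039 to 0.069 in the other 4. What part GC content or length has in the spread of MET and EGFR was not tested. After a GC correction added after the data were seen, the log2 fold changes were -0.041 for MET and -0.030 for EGFR, still not called. Without both of these libraries the log2 fold changes were -0.052 for MET, -0.086 for EGFR, -0.087 for AXL, -0.045 for FGFR4, -0.047 for IGF1R, -0.041 for ERBB3 and 0.086 for ERBB2, and none of the 7 was called (limma, lowest adjusted p = 0.980).

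**Figure D4:**
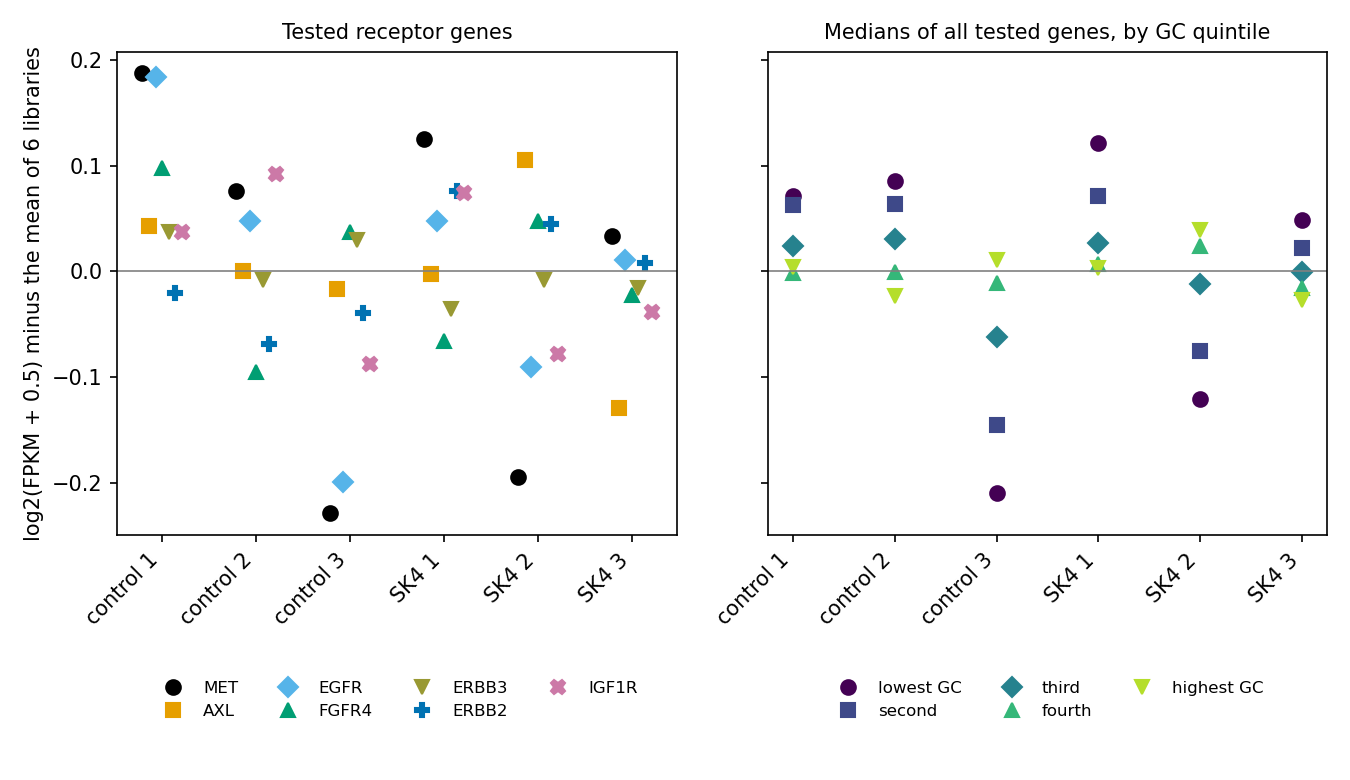
Deviation of log2(FPKM + 0.5) from the mean of the 6 libraries (y axis) in each library (x axis), for the 7 tested receptor genes (left) and as medians of all tested genes by quintile of GC content (right). In control replicate 3 and SK4 replicate 2, MET lies at -0.23 and -0.19 and the lowest GC quintile at -0.21 and -0.12.

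Ligands of EGFR were abundant in the same cells, led by amphiregulin. AREG, a low-affinity EGFR ligand, was at 65.0, 67.1 and 61.6 FPKM with the control plasmid and 63.0, 69.03 and 65.7 FPKM with SK4. That is 10.6 to 13.8 times the level of EGFR in the same library. EREG, epiregulin, was at 30.6 ± 5.65 FPKM with the control plasmid and 30.3 ± 1.50 FPKM with SK4 (SD, n = 3). HBEGF, heparin-binding EGF, was at 9.42 ± 1.14 and 9.65 ± 0.581 FPKM. TGFA, transforming growth factor alpha, was at 5.25 ± 0.445 and 5.59 ± 0.231 FPKM, and BTC, betacellulin, at 2.66 ± 0.435 and 2.88 ± 0.498 FPKM. EGF itself stayed at or below 0.31 FPKM in every library, below each of these 5 ligands. The neuregulins, ligands of ERBB3, were lower, NRG1 at 0.870 ± 0.0656 and 0.810 ± 0.0458 FPKM, NRG2 at most at 0.62 FPKM, and NRG3 and NRG4 at most at 0.03 FPKM. Of the 11 ligands 5 were tested and 0 called in either direction, with a median log2 fold change of 0.039 and 5 of 5 positive. Beside this list and those below, 0.00898% of all tested genes were called and 57.9% were positive. With so few called, 0 called is not a result about a list. The median was -0.0086 without control replicate 3 and -0.0021 with library weights, and it reached 0.12 without control replicate 2. If control replicate 1 was left out it was 0.098, and if SK4 replicate 2 was left out 0.060.

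MET and AXL had few transcripts of HGF and GAS6 beside them. HGF, the ligand of MET, was at 0.99, 1.15 and 0.76 FPKM with the control plasmid and 1.09, 0.82 and 1.10 FPKM with SK4, and MET exceeded it by 22.4 to 28.2 times within a library. PROS1, protein S, a ligand of the AXL family, was at 3.41 ± 0.351 FPKM with the control plasmid and 3.32 ± 0.502 FPKM with SK4 (SD, n = 3). GAS6, the main ligand of AXL, stayed between 0.08 and 0.19 FPKM. Thus MET stood beside HGF at 1.15 FPKM or less and AXL beside GAS6 at 0.19 FPKM or less, while PROS1 reached 3.75 FPKM. HGF and PROS1 were tested and not called (0 of 2 in either direction). Proteins in the serum of the medium are not seen by RNA-seq.

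**Figure D5:**
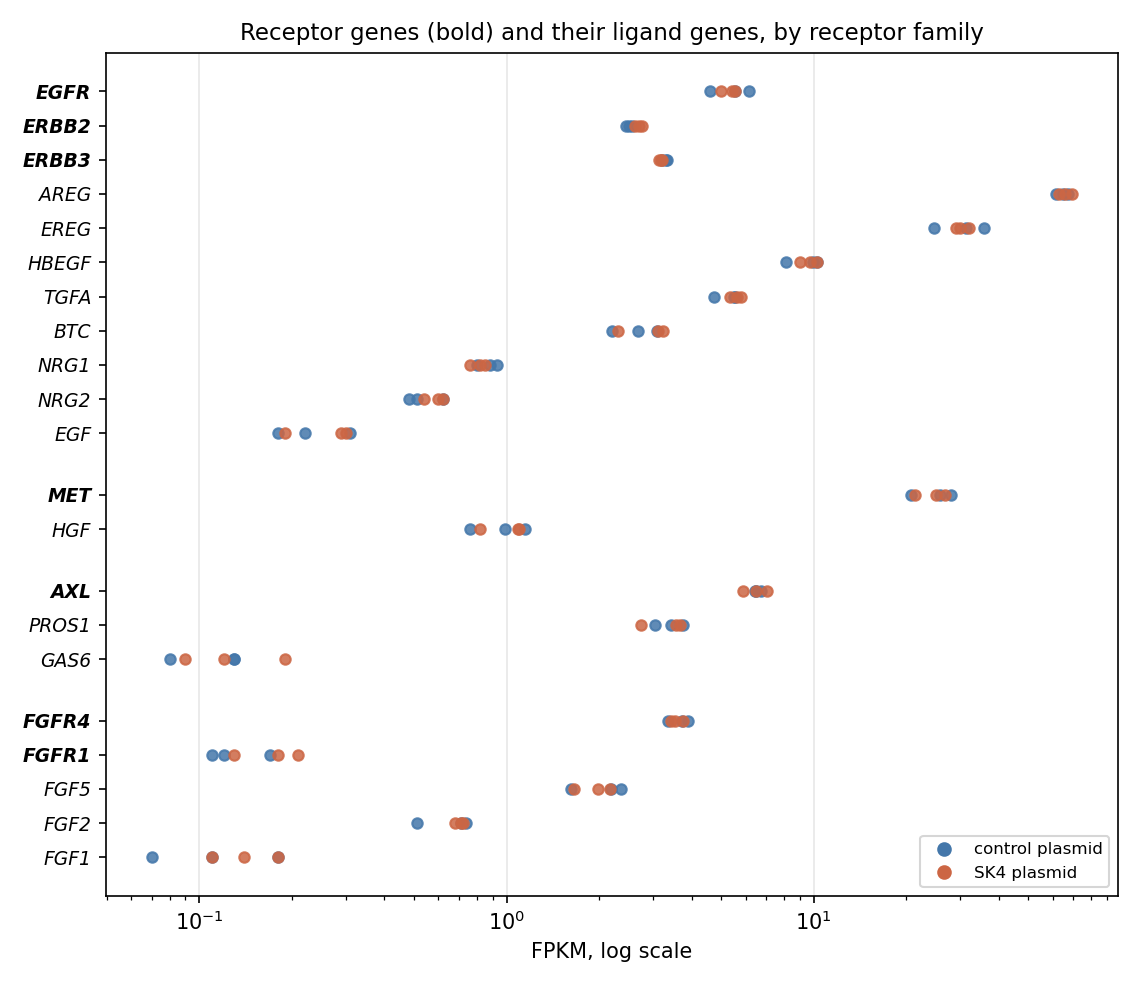
FPKM on a log scale (x axis) of the receptor genes (bold) and their ligand genes by receptor family; each point is 1 library, blue for control and orange for SK4. AREG and EREG lie above EGFR, whereas HGF lies below MET and GAS6 below AXL in all 6 libraries.

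Ligands of the FGF receptors were scarce. FGF5 was at 2.05 ± 0.382 FPKM with the control plasmid and 1.94 ± 0.258 FPKM with SK4 (SD, n = 3), the only one of 16 measured FGF genes to pass the filter, and it was not called. FGF2, basic FGF, was at 0.653 ± 0.125 and 0.703 ± 0.0208 FPKM and FGF1 at most at 0.18 FPKM. FGF19, the ligand of FGFR4, was at most at 0.02 FPKM, and its co-receptor gene KLB at most at 0.04 FPKM. FGFR4 transcripts therefore had neither partner transcript beside them at more than 0.04 FPKM.

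For IGF1R, 5 of the 6 measured binding proteins passed the filter, and neither growth factor did. IGF1 and IGF2 were at most at 0.01 and 0.05 FPKM. IGFBP6, a binding protein that prefers IGF2, was at 348.7 ± 5.07 FPKM with the control plasmid and 368.6 ± 22.5 FPKM with SK4 (SD, n = 3). IGFBP4 was at 64.9 ± 3.41 and 62.8 ± 2.42 FPKM and IGFBP2 at 46.5 ± 1.58 and 48.7 ± 1.28 FPKM. IGFBP1 was at 18.3 ± 1.32 and 18.5 ± 0.789 FPKM, and IGFBP3 at 1.62 ± 0.196 and 1.45 ± 0.171 FPKM, whereas IGFBP5 was at most at 0.03 FPKM. These proteins hold growth factors outside the cell and limit their access to IGF1R. Of the 5 tested genes of the list, 0 were called, with 3 positive and a median log2 fold change of 0.015, which was -0.0041 without control replicate 3, -0.019 without SK4 replicate 2 and -0.031 with library weights. Leaving out 1 of the other 4 libraries gave medians of 0.024 to 0.041. IGF2R, which clears IGF2, was at 5.18 ± 0.587 and 4.98 ± 0.246 FPKM.

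The measured co-receptors of RET were, like RET itself, close to 0, while the co-receptor GFRA4 was not analysed here. GDNF family ligands bind RET through GFRA proteins, and GFRA1, GFRA2 and GFRA3 were at most at 0.01, 0.01 and 0.06 FPKM. GFRAL, through which GDF15 reaches RET, was at most at 0.01 FPKM. Of the 5 ligand genes, 3 had a mean above 0.5 FPKM in both groups. GDF15 was at 12.1 ± 0.269 FPKM with the control plasmid and 12.7 ± 0.740 FPKM with SK4 (SD, n = 3), NRTN, neurturin, at 2.81 ± 0.268 and 2.90 ± 0.308 FPKM, and PSPN, persephin, at 0.757 ± 0.129 and 0.707 ± 0.105 FPKM. GDNF and ARTN, artemin, were at most at 0.01 and 0.09 FPKM. The 2 tested ligands were positive and not called. Genes that fuse with RET in papillary carcinoma were all expressed, led by NCOA4, a receptor of ferritin autophagy, at 23.1 ± 2.15 and 23.4 ± 1.40 FPKM. PRKAR1A, a regulatory subunit of protein kinase A, was at 6.41 ± 0.748 and 6.10 ± 0.630 FPKM and CCDC6 at 6.01 ± 0.985 and 5.92 ± 0.708 FPKM. Of these 8 partner genes 0 were called, 6 were positive and the median log2 fold change was 0.058. That median was -0.026 without control replicate 3, -0.0043 without SK4 replicate 1, 0.14 without SK4 replicate 2, and 0.11 without either control replicate 1 or 2. Fusion transcripts are not resolved by gene-level values.

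Other co-receptors that help growth factors reach these receptors were well expressed. The heparan sulfate proteoglycan gene SDC4 was at 98.7 ± 7.09 FPKM with the control plasmid and 104.7 ± 6.40 FPKM with SK4 (SD, n = 3). CD44, which presents HGF to MET, was at 44.9 ± 2.96 and 46.1 ± 0.685 FPKM, and PLXNB2, a semaphorin receptor, at 38.97 ± 0.544 and 38.8 ± 1.01 FPKM. SDC1 and GPC1, also proteoglycans, were at 16.5 ± 0.431 and 16.8 ± 0.573 FPKM and at 12.9 ± 0.489 and 13.3 ± 0.664 FPKM. PLXNB1, NRP1, SDC3, SDC2 and NRP2 lay between 0.92 and 5.15 FPKM. In this list, which also holds IGF2R, 0 of 11 tested genes were called, 6 were positive, and the median log2 fold change was 0.0061. It lay between 0.0011 (without SK4 replicate 1) and 0.019 (without SK4 replicate 3) with 1 library left out, and was negative with TMM scaling (-0.0057), quantile normalization (-0.0095) and library weights (-0.015).

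Adaptors downstream of the receptors were expressed over a wide range. SHC1, which links receptors to GRB2, was at 44.5 ± 1.13 FPKM with the control plasmid and 45.1 ± 0.875 FPKM with SK4 (SD, n = 3). GRB2, which recruits the RAS activator SOS, was at 24.2 ± 0.885 and 24.6 ± 0.498 FPKM, and the kinase gene SRC at 11.3 ± 0.412 and 11.7 ± 0.328 FPKM. Of 18 tested adaptors 0 were called, 12 were positive, and the median log2 fold change was 0.018. Without control replicate 3 that median was -0.016, without SK4 replicate 1 -0.0017, without control replicate 1 0.031, without SK4 replicate 3 0.033 and with library weights -0.027. Inhibitors of the receptors gave 0 of 20 called, with 14 positive and a median of 0.026. Theirs was -0.026 without control replicate 3, 0.0048 without SK4 replicate 1, 0.054 to 0.056 without control replicate 1, control replicate 2 or SK4 replicate 2, and -0.010 with library weights. ERRFI1, the feedback inhibitor of EGFR also called MIG6, was at 48.6 ± 6.31 and 47.7 ± 1.34 FPKM, and its level was 8.62 to 9.28 times that of EGFR within every library. SOCS3, which curbs cytokine and receptor signals, was at 30.4 ± 0.626 and 30.1 ± 0.391 FPKM, and TSG101, which sorts receptors for degradation, at 18.4 ± 1.00 and 18.6 ± 0.817 FPKM.

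Proteases that shed or activate ligands and receptors were listed together with the protease inhibitors SPINT1 and SPINT2. Of the 8 tested genes of that list 0 were called and 6 were positive (median log2 fold change 0.061). SPINT2 and SPINT1 inhibit the proteases that activate HGF, and were at 108.04 ± 1.45 and 108.9 ± 2.45 FPKM and at 19.6 ± 0.652 and 20.8 ± 0.620 FPKM with the control plasmid and SK4 libraries. ADAM15, a membrane metalloprotease, was at 45.2 ± 0.890 and 44.3 ± 1.07 FPKM (SD, n = 3). The median of the list was 0.0013 without control replicate 3, 0.013 without SK4 replicate 1 and -0.0080 with library weights. Of the 10 other receptor genes tested 0 were called and 6 were positive, with a median of 0.016. With 1 library left out that median was 0.014 to 0.039, with 0.035 to 0.039 if control replicate 1 or 2 or SK4 replicate 2 or 3 was left out, and it was -0.015 with library weights. Named after their values were seen, DDR1 (11.6 ± 0.195 and 12.3 ± 0.275 FPKM) and TYRO3 were the 2 of the 10 whose SK4 values all exceeded the control values, beside the 3.53% of all tested genes.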

How the data were processed

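RNA-seq libraries came from 6 samples, grouped by title. Per the labels' protocols, polyadenylated RNA was captured and strand-marked paired-end libraries were sequenced. Per the submitters' processing notes, HISAT2 and GRCh38 were used; for the counting tool, its handling of shared reads and the annotation release, no source used here gives a name. Values were deposited as FPKM by the authors, rounded to 2 decimals, with no counts. FPKM adjusts for depth and gene length, but not for GC content.

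The treatment label of control replicate 3 names another cell line number than its cell line label and source name; its title numbers it with the controls, where it stayed. The members and gene lists were chosen with earlier results of these data known. Genes that reached 1 FPKM in 3 or more libraries were compared on log2(FPKM + 0.5) with limma 3.58.1 in R 4.3.3 (trended, robust prior variance, Benjamini-Hochberg adjustment over all 11139 tested genes, threshold 0.05). The fit was checked on simulated data. Named genes were all members, KCNN4, called list genes, the 3 highest genes of each list other than the cell type markers, and ligand and co-receptor genes that passed the filter; others are examples chosen after their values were seen, to complete families or describe the markers. Depth was estimated from 561 single-exon genes shorter than 160 nt, as the depth at which low values came closest to whole fragments. At that depth, 99.5% to 100% of values up to 5 fragments (169 to 206 per library) were whole within 0.1. The depth was chosen on these same values, so this share is no separate check of it. Fragment numbers per gene use GENCODE release 29 exon lengths and cover counting error only. Of the 32896 identifiers, 31742 matched that release. The alternatives are listed in the closing section.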

Additional observations from a re-analysis of the deposited data

How the results depend on the processing

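The alternatives changed the pseudocount (0.1 and 1), the filter, the scaling (TMM, quantile), library weights, the prior variance, the threshold (0.01), the replicate term and the libraries used; the GC correction was chosen after seeing the data. None of the 18 alternatives called a member (limma, lowest adjusted p = 0.690, with library weights). Over all genes 1 was called in each alternative except without control replicate 3 and SK4 replicate 2 together, where 4 were. The log2 fold change of KCNN4 was 4.16 to 4.32 with 1 library left out, and the share of the members in the receptor sum 36.9% to 37.8%. With 1 library left out, the log2 fold change ranged from -0.13 to 0.065 for EGFR, from -0.14 to 0.068 for MET, from -0.074 to 0.043 for AXL, from -0.081 to 0.016 for FGFR4 and from -0.079 to 0.011 for IGF1R; the values above 0 arose without control replicate 1 (EGFR 0.065, MET 0.065, FGFR4 0.016), without control replicate 2 (MET 0.0092, IGF1R 0.011), without SK4 replicate 2 (EGFR 0.019, MET 0.068, IGF1R 0.0040) and without SK4 replicate 3 (AXL 0.043). The replicate block cannot alter an estimate in this balanced design. With it, the adjusted p of KCNN4 was 0.000148 (limma, log2 fold change 4.23), 1 gene was called and no member. The deviations of same-numbered libraries correlated at 0.31, -0.41 and -0.15 across genes, and 1 of 6 libraries was closest to its own number. Control replicate 3 and SK4 replicate 2 shared lower values for genes of low GC content under different numbers. The check therefore cannot settle whether the numbers pair the samples. Of 306 values recomputed for single members and lists, 293 kept their sign and side or moved by less than the spread between replicates. A change of filter, prior variance, threshold or replicate term cannot alter the estimate of a gene. Part of this agreement was therefore fixed in advance. Depth limits FGFR1 (49 to 107 fragments) and RET (0 to 5 fragments, by its values as listed) most.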
